A study of Arabidopsis thaliana with 8 samples.

Results

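The transcripts of 4 genes linked to bud dormancy, HB21 (AT2G18550), HB40 (AT4G36740), DYL1 (AT1G28330, also named DRM1) and AT2G33830 (also named DRM2), were followed through young inflorescences of 4 Arabidopsis thaliana genotypes. They are 4 of the 19853 genes in the deposited expression table and were chosen by gene identifier, with their high levels in the fhy3-68 genotypes already known. The measured levels that set the genotypes with fhy3-68 apart from those without it were therefore used in choosing the genes, and those levels are given below as a description with no test.

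HB21 and HB40 encode homeodomain-leucine zipper transcription factors of class I. In axillary buds of Arabidopsis they are known, with the related HB53, to act below the TCP transcription factor BRC1, which holds back branch outgrowth, and above NCED3, which encodes a rate-limiting dioxygenase of abscisic acid synthesis. DYL1 and AT2G33830 belong to the dormancy and auxin associated family of small proteins, whose transcripts are abundant in dormant buds and drop when a bud starts to grow. Transcripts of this family are also known to rise when sugar is short.

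RNA was sequenced from inflorescences that held flowers up to stage 8. The genotypes were the ag-10 fhy3-68 double mutant, the fhy3-68 single mutant, the ag-10 single mutant and Ler, with 2 libraries each, and the series describes these as biological replicates. Both single mutations affect regulators: FHY3 is a transposase-derived transcription factor of phytochrome A signalling, and AGAMOUS sets stamen and carpel identity and stops the floral meristem, with ag-10 known as a weak allele. The ag-10 mutation is thus present in the double mutant and in ag-10, and fhy3-68 in the double mutant and in fhy3-68. Neither plant age nor growth condition is given in the sources used here, and inflorescences were taken as whole tissue.

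Each library had between 12322061 and 16816619 reads in the listed genes, and values are read counts normalised to 1000000 reads, so that 1 read was worth between 0.0598 and 0.0793. Values are not scaled for transcript length, so levels are compared between libraries and not between genes. FHY3 mRNA itself was present in all libraries, at 85.84 and 91.75 in ag-10 fhy3-68, 70.48 and 93.0 in fhy3-68, 103.61 and 103.4 in ag-10 and 103.38 and 109.81 in Ler, while AG was not analysed here. The 7 young flower markers LFY, AP1, AP3, PI, SEP3, WUS and ANT were all measured. Their summed level lay between 963.5 and 1037.7 in the libraries with fhy3-68 and between 1061.0 and 1100.2 in those without it.

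HB21 and HB40 transcripts were barely detected in ag-10 and Ler and reached many times those levels in both genotypes with fhy3-68. HB21 stood at 18.96 and 12.61 in the ag-10 fhy3-68 libraries, 6.43 and 17 in fhy3-68, 0.07 and 0.92 in ag-10, and 0.64 and 0.79 in Ler. All 4 libraries with fhy3-68 lay above all 4 without it, and the lowest of them was 6.99 times the highest library without the mutation. Behind these values were 490 reads in ag-10 fhy3-68, 328 in fhy3-68, 13 in ag-10 and 19 in Ler. In whole inflorescences, more cells of a type and more transcript per cell cannot be told apart. A single read stood for HB21 in replicate 1 of ag-10, so the low end of this gene rests on very few molecules.

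HB40, the second of these transcription factors, followed the same split. It stood at 16.58 and 10.16 in ag-10 fhy3-68, 7.27 and 18.37 in fhy3-68, 0.35 and 0.54 in ag-10, and 0.78 and 0.56 in Ler. Its lowest library with fhy3-68 was 9.32 times its highest library without it, and it had 414 reads in ag-10 fhy3-68, 359 in fhy3-68, 12 in ag-10 and 18 in Ler. As ratios of normalised counts, HB21 was 21.9 times its level in Ler in ag-10 fhy3-68 and 16.4 times in fhy3-68. For HB40 the ratio to Ler was 19.5 in ag-10 fhy3-68 and 18.9 in fhy3-68. Each ratio pools the reads of the 2 libraries of a genotype and leaves out the spread between replicates. No interval is given, since the genes were chosen on these levels.

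**Figure D1:**
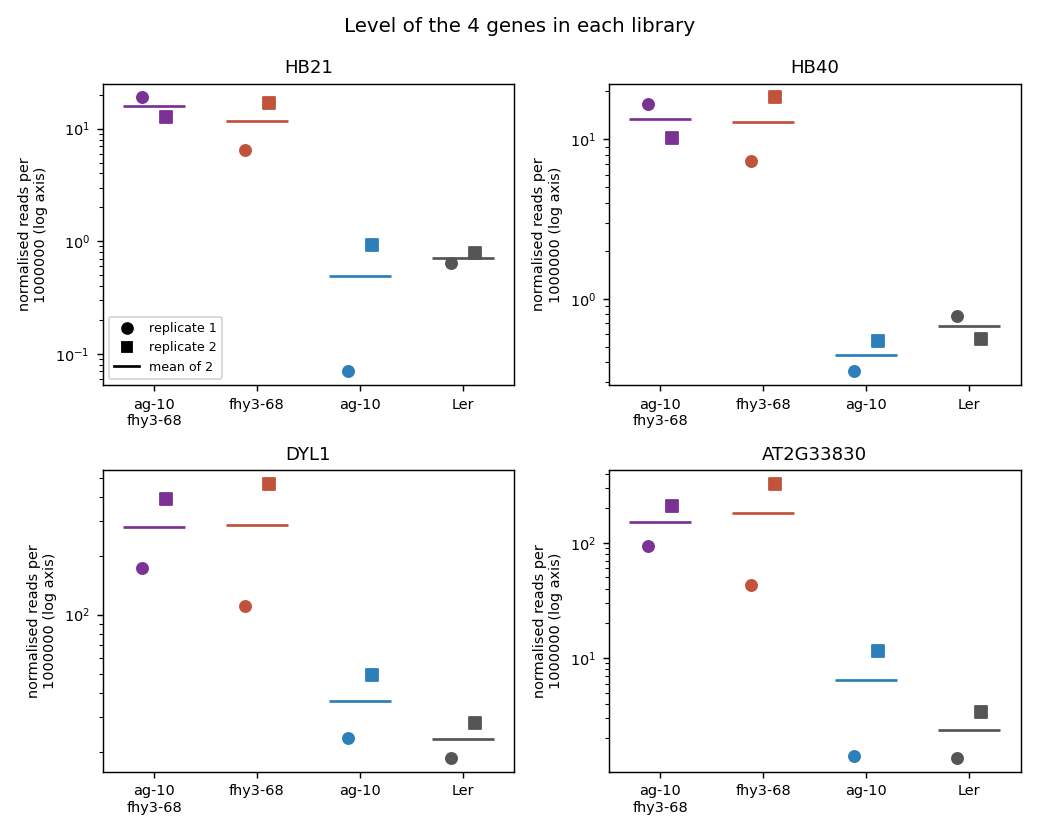
Normalised read counts of HB21, HB40, DYL1 and AT2G33830 in each library on a log axis, with genotypes from left to right ag-10 fhy3-68, fhy3-68, ag-10 and Ler; markers are the 2 libraries of a genotype and lines their mean. In each panel the 4 libraries with fhy3-68 lie above the 4 without it, by a gap of 6.99 times for HB21, 9.32 times for HB40, 2.25 times for DYL1 and 3.77 times for AT2G33830.

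DYL1 and AT2G33830 transcripts were detected in all libraries and were higher in those with fhy3-68. DYL1 reached 172.63 and 386.61 in ag-10 fhy3-68 and 110.26 and 463.34 in fhy3-68, against 23.35 and 49.02 in ag-10 and 18.52 and 27.93 in Ler. The libraries with and without fhy3-68 did not overlap, but the gap was narrower than for the homeobox genes, since replicate 1 of fhy3-68 was 2.25 times replicate 2 of ag-10. AT2G33830 reached 94.54 and 210.04 in ag-10 fhy3-68 and 43.07 and 323.87 in fhy3-68, against 1.41 and 11.41 in ag-10 and 1.35 and 3.41 in Ler. Replicate 2 of ag-10 was the highest of its libraries without fhy3-68, and the lowest library with fhy3-68 was 3.77 times as high. A non-overlap of this kind was common in the table, where 14.3% of the 19853 genes had all 4 libraries with fhy3-68 above all 4 without it and 12.9% had them all below. A gap of at least 2 times between the lowest library with fhy3-68 and the highest without it was found in 0.997% of genes, among them all 4 described here, which were chosen with these levels known.

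Genotype means gave the same order for the 2 homeobox genes and another order for the dormancy family. HB21 averaged 15.8 ± 4.49 in ag-10 fhy3-68, 11.7 ± 7.47 in fhy3-68, 0.495 ± 0.601 in ag-10 and 0.715 ± 0.106 in Ler (SD, n = 2 each). HB40 averaged 13.4 ± 4.54 in ag-10 fhy3-68, 12.8 ± 7.85 in fhy3-68, 0.445 ± 0.134 in ag-10 and 0.67 ± 0.156 in Ler (SD, n = 2 each). For both genes the libraries of the 2 genotypes with fhy3-68 overlapped each other. Those of ag-10 and Ler overlapped for HB21, while for HB40 both ag-10 libraries lay just below both Ler libraries, a difference that rests on 12 against 18 reads. DYL1 averaged 280.0 ± 151 in ag-10 fhy3-68, 287 ± 250 in fhy3-68, 36.2 ± 18.2 in ag-10 and 23.2 ± 6.65 in Ler (SD, n = 2 each). AT2G33830 averaged 152 ± 81.7 in ag-10 fhy3-68, 183 ± 199 in fhy3-68, 6.41 ± 7.07 in ag-10 and 2.38 ± 1.46 in Ler (SD, n = 2 each). For both genes the ag-10 mean was above the Ler mean by less than the SD of the ag-10 libraries, and the SD in fhy3-68 was close to or above its mean.

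Fold changes were estimated with limma on log2(value + 0.5), a scale that understates the change of genes near 0. In ag-10 fhy3-68 against Ler the log2 fold change was 3.72 (SE 0.54) for HB21, 3.53 (SE 0.43) for HB40, 3.48 (SE 0.69) for DYL1 and 5.72 (SE 1.1) for AT2G33830. In fhy3-68 against Ler it was 3.18, 3.38, 3.28 and 5.47 for the same genes, and in ag-10 fhy3-68 against ag-10 it was 4.15, 3.84, 2.91 and 4.89, with the same SEs. The comparisons share libraries and are not independent of each other. No p is given for these values, since the genes were chosen on them. The log2 fold changes stayed above 2 in each of the 3 comparisons whichever library was left out. Their sign could not turn, since for each gene all libraries with fhy3-68 lay above all those without it.

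**Figure D2:**
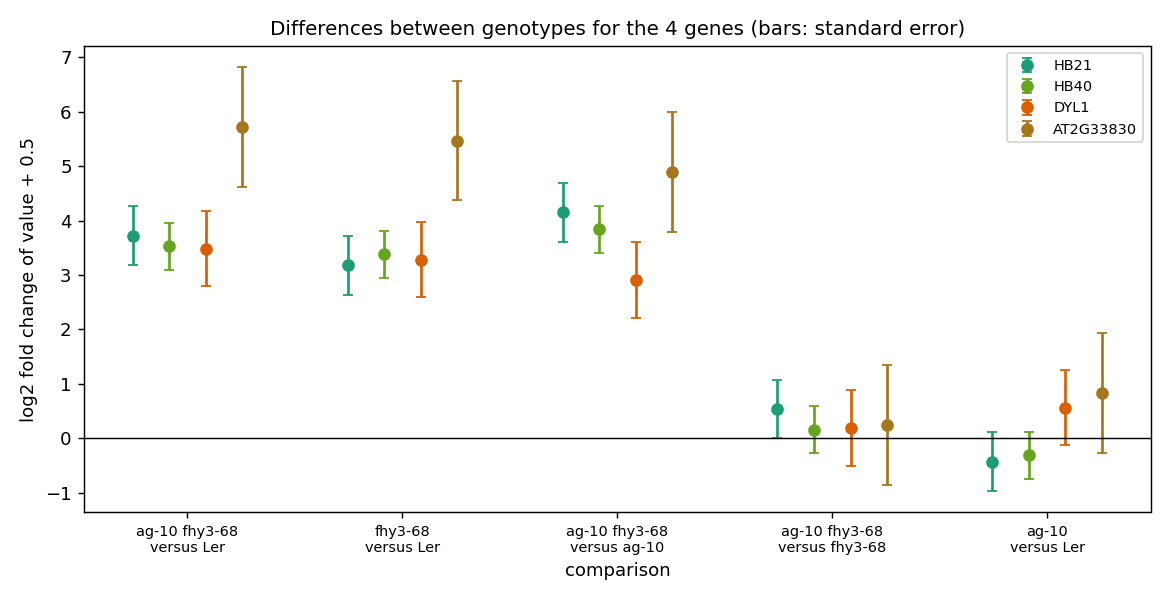
Log2 fold changes of the 4 genes on the log2(value + 0.5) scale in 5 comparisons between genotypes, first genotype over second; points are limma estimates and bars 1 standard error. The 3 comparisons that differ by fhy3-68 lie between 2.91 and 5.72, while ag-10 fhy3-68 against fhy3-68 and ag-10 against Ler lie within 1 of 0.

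The log2 fold changes with ag-10 were smaller than the SD between replicates for each of the 4 genes, with or without fhy3-68. In ag-10 fhy3-68 against fhy3-68 the log2 fold change was 0.54 for HB21 (95% interval -0.72 to 1.8), 0.16 for HB40 (-0.84 to 1.15), 0.19 for DYL1 (-1.43 to 1.81) and 0.25 for AT2G33830 (-2.32 to 2.83). A gene was called where the Benjamini-Hochberg adjusted p of limma, two-sided and over all genes, was under 0.05. None of the 4 genes was called (adjusted p = 1.0 for each gene), nor was any other gene in this comparison, in which 0.0% of genes were called by limma, 427 had an unadjusted p under 0.05, and the edgeR quasi-likelihood test called 0 and DESeq2 1. With edgeR and DESeq2 this log2 fold change turned negative for DYL1 (-0.04 and -0.03) and AT2G33830 (-0.27 with each). In ag-10 against Ler, where 0.00504% of genes were called, the values were -0.43 for HB21 (-1.69 to 0.83), -0.31 for HB40 (-1.3 to 0.69), 0.56 for DYL1 (-1.06 to 2.19) and 0.83 for AT2G33830 (-1.75 to 3.4), again with an adjusted p of 1.0 each. These comparisons share libraries with those on which the genes were chosen. In both comparisons the interval of every one of the 4 genes still allows a change of more than 2 times in at least 1 direction, so a lack of effect is not shown. The SE in both was 0.54 for HB21, 0.43 for HB40, 0.69 for DYL1 and 1.1 for AT2G33830. With the replicate number as a block in the fit it was 0.47, 0.43, 0.3 and 0.46, and none of the 4 genes was called. The labels tie no batch to that number. On the log2 scale the change between ag-10 fhy3-68 and ag-10 exceeded that between fhy3-68 and Ler by 0.97 (SE 0.76) for HB21, 0.47 (SE 0.6) for HB40, -0.37 (SE 0.98) for DYL1 and -0.58 (SE 1.56) for AT2G33830, a negative value meaning a smaller change with ag-10.

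The replicates of a genotype differed for all 4 genes, and the direction was shared by DYL1 and AT2G33830 in every genotype. DYL1 was higher in replicate 2 in all genotypes, by 2.24 times in ag-10 fhy3-68, 4.2 times in fhy3-68, 2.1 times in ag-10 and 1.51 times in Ler. AT2G33830 did the same, by 2.22 times in ag-10 fhy3-68, 7.52 times in fhy3-68, 8.09 times in ag-10 and 2.53 times in Ler. Of all genes 11.8% were higher in replicate 2 in every genotype, but only 0.72% were at least 2 times higher in both genotypes with fhy3-68, as these 2 were. HB21 and HB40 moved the other way between the ag-10 fhy3-68 libraries, where replicate 2 was 0.665 and 0.613 times replicate 1. In fhy3-68 they moved the same way as the dormancy family genes, with replicate 2 at 2.64 and 2.53 times replicate 1. In ag-10 replicate 2 was 13.1 times replicate 1 for HB21 and 1.54 times for HB40, and in Ler it was 1.23 and 0.718 times, all from 12 reads a library or fewer. Over 16061 genes the log2 difference between replicates 2 and 1 had a correlation of 0.5 between the 2 genotypes with fhy3-68. In the other pairs of genotypes it lay between -0.03 and 0.35. The replicate numbers thus did not mark a shared deviation in every pair, and the labels tie no batch or day to them. The within-genotype SD on the log2 scale was 0.7 for HB21, 0.53 for HB40, 0.94 for DYL1 and 1.49 for AT2G33830.

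**Figure D3:**
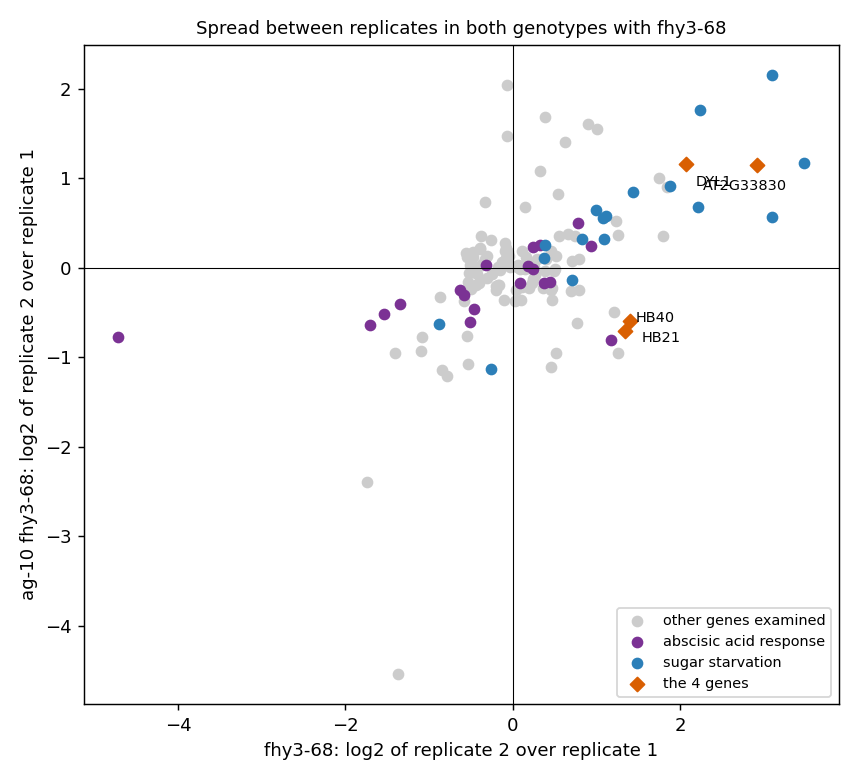
Log2 of replicate 2 over replicate 1 in fhy3-68 on the x axis and in ag-10 fhy3-68 on the y axis; each point is a gene, with diamonds for the 4 genes, blue and purple for sugar starvation and abscisic acid response genes and grey for the other genes examined. DYL1 and AT2G33830 lie right of and above 0, at ratios of 4.2 and 7.52 in fhy3-68, while HB21 and HB40 lie right of 0 but below it, at ratios of 0.665 and 0.613 in ag-10 fhy3-68.

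The closest relatives and partners of the 4 genes were examined next. The gene lists used from here on were written with earlier results of these data known. Their counts and medians are therefore a description and not an independent test. Among all listed genes 2.48% were called higher and 1.85% lower in ag-10 fhy3-68 against Ler, 2.26% and 0.786% in fhy3-68 against Ler, and 0.992% and 0.509% in ag-10 fhy3-68 against ag-10. HB53, the third homeobox gene of the BRC1 cascade, stood at 2.24 and 3.23 in ag-10 fhy3-68, 1.26 and 2.95 in fhy3-68, 0.07 and 0.38 in ag-10, and 0.21 and 0.32 in Ler. It was low throughout, with 87 reads in ag-10 fhy3-68, 59 in fhy3-68, 6 in ag-10 and 7 in Ler, but its libraries with fhy3-68 were all above those without. HB53 rose in ag-10 fhy3-68 against Ler (log2 fold change 2.07, SE 0.4, limma adjusted p = 0.0401), with adjusted p = 0.0643 in fhy3-68 against Ler and 0.0527 in ag-10 fhy3-68 against ag-10. AT1G56220, the other measured member of the dormancy and auxin associated family, stood at 344.65 and 444.35 in ag-10 fhy3-68, 229.95 and 547.98 in fhy3-68, 109.81 and 165.59 in ag-10, and 95.37 and 137.03 in Ler. Its libraries also separated by fhy3-68, with replicate 2 higher in each genotype. Its log2 fold changes of 1.77, 1.63 and 1.53 in ag-10 fhy3-68 against Ler, fhy3-68 against Ler and ag-10 fhy3-68 against ag-10 did not pass limma's test (adjusted p = 0.0549, 0.0695 and 0.1). With the replicate number as a block in the fit, the limma adjusted p lay between 0.00953 and 0.017 for AT1G56220 and between 0.0147 and 0.0237 for HB53. Another gene model, AT1G56225, overlaps AT1G56220 in the reference, and reads of both may not have been told apart. How reads shared by near-identical family members were counted is not stated.

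Of the 17 class I homeodomain-leucine zipper genes listed, 13 were measured, and 11 of these were neither HB21 nor HB40. Among these 11, HB7, which is known to respond to drought and abscisic acid, rose in each of the 3 comparisons that differ by fhy3-68. HB7 stood at 30.58 and 23.67 in ag-10 fhy3-68 and 23.42 and 23.84 in fhy3-68, against 8.18 and 12.94 in ag-10 and 8.51 and 10.63 in Ler (log2 fold change 1.45, SE 0.23, limma adjusted p = 0.0293 in ag-10 fhy3-68 against Ler). HB54 fell in ag-10 fhy3-68 against Ler, with 6.59 and 6.1 against 13.34 and 12.93 (log2 fold change -0.99, SE 0.18, limma adjusted p = 0.0364). The median log2 fold change of the 11 genes in ag-10 fhy3-68 against Ler was 0.01, beside -0.005 over all genes, and 6 of the 11 were above 0.

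The genes placed above and below HB21 and HB40 in axillary buds, BRC1 and NCED3, were higher in the libraries with fhy3-68 but did not pass the main test. For BRC1 this depended on the fit. With the replicate number as a block its limma adjusted p lay between 0.0156 and 0.0169 in the comparisons that differ by fhy3-68. That of NCED3 lay between 0.0787 and 0.112. BRC1 stood at 16.11 and 20.62 in ag-10 fhy3-68, 10.77 and 37.31 in fhy3-68, 1.76 and 2.6 in ag-10, and 2.13 and 5.79 in Ler. NCED3 stood at 6.93 and 3.59 in ag-10 fhy3-68, 8.39 and 3.17 in fhy3-68, 0.56 and 1.99 in ag-10, and 0.99 and 1.11 in Ler. For both genes the 4 libraries with fhy3-68 lay above the 4 without, a separation that 14.3% of all genes showed. The log2 fold change of BRC1 was 2.2 in ag-10 fhy3-68 against Ler and 2.34 in fhy3-68 against Ler (SE 0.59, limma adjusted p = 0.0777 and 0.0732). That of NCED3 was 1.83 and 1.88 (SE 0.54, limma adjusted p = 0.098 and 0.0971). BRC1 is also the one axillary bud marker measured, since BRC2 was not analysed here.

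**Figure D4:**
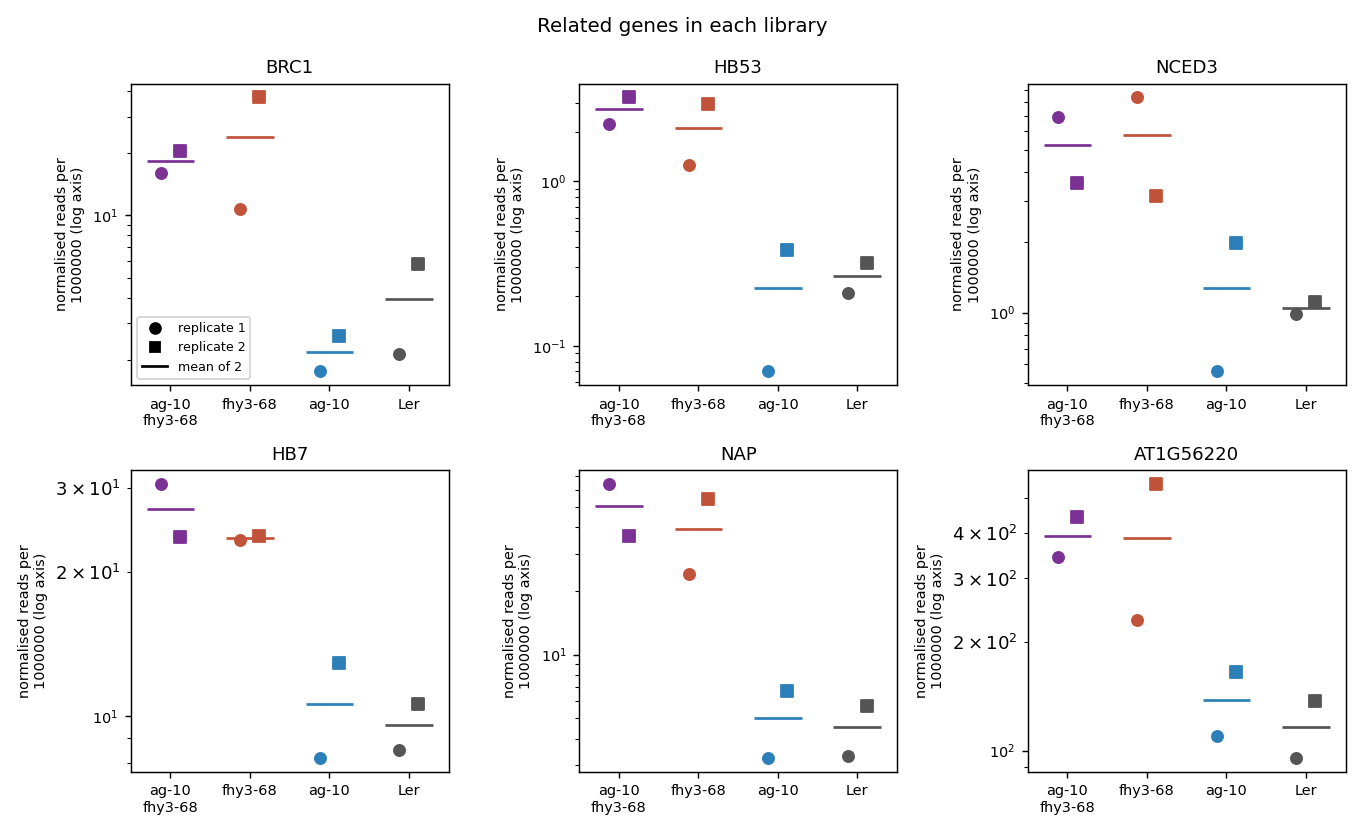
Normalised read counts of genes related to the 4 dormancy genes in each library on a log axis, with genotypes from left to right ag-10 fhy3-68, fhy3-68, ag-10 and Ler; markers are the 2 libraries of a genotype and lines their mean. BRC1, HB53, NCED3 and HB7 all have their 4 libraries with fhy3-68 above the 4 without, BRC1 between 10.77 and 37.31 against 1.76 to 5.79.

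Among 17 listed regulators of branching 14 were measured. Of these 1 rose and 1 fell in ag-10 fhy3-68 against Ler (2.48% and 1.85% of all genes), and in each of the other comparisons that differ by fhy3-68 1 rose and 0 fell. Their median log2 fold change in ag-10 fhy3-68 against Ler was -0.21, beside -0.005 over all genes. For 6 of the 14 all 4 libraries with fhy3-68 lay below all 4 without it, beside 12.9% of all genes. These were SPL9, SPL15, PHYB, RAX1, RAX2 and FHY3. FHY3 is the gene that the fhy3-68 mutation itself affects, so its place in this count and in the list median is not a separate observation. For 2 of the 14, BRC1 and FAR1, they lay above, beside 14.3% of all genes. FAR1, the paralogue of FHY3, rose in all 3 comparisons that differ by fhy3-68 (66.06 and 65.81 in ag-10 fhy3-68, 56.07 and 60.8 in fhy3-68, 44.64 and 45.57 in ag-10, 43.64 and 42.53 in Ler). Its log2 fold change in ag-10 fhy3-68 against Ler was 0.61 (SE 0.08, limma adjusted p = 0.0199). SPL15, which encodes a transcription factor that promotes flowering, fell in ag-10 fhy3-68 against Ler (20.39 and 21.04 against 35.9 and 32.77, log2 fold change -0.71, limma adjusted p = 0.0426), and it overlaps another listed gene, AT3G57910.

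Strigolactones restrain branching, and 14 of the 15 genes listed for strigolactone and the related karrikin pathway were measured. In ag-10 fhy3-68 against Ler 3 rose and 1 fell (2.48% and 1.85% of all genes), in fhy3-68 against Ler also 3 and 1 (2.26% and 0.786%), and in ag-10 fhy3-68 against ag-10 2 and 1 (0.992% and 0.509%). SMAX1 and SMXL2, repressors of karrikin signalling, rose in all 3, and SMXL7, a repressor of strigolactone signalling, fell in all 3. SMXL2 reached 112.35 and 187.15 in ag-10 fhy3-68 and 208.77 and 164.96 in fhy3-68, against 51.77 and 57.83 in ag-10 and 57.9 and 48.88 in Ler. SMXL7 was lower by less, at 44.18 and 38.13 in ag-10 fhy3-68 and 36.78 and 39.55 in fhy3-68, against 60.73 and 65.1 in ag-10 and 57.4 and 55.86 in Ler. The strigolactone receptor D14 rose in fhy3-68 against Ler (log2 fold change 0.67, limma adjusted p = 0.049). The karrikin receptor KAI2 rose in ag-10 fhy3-68 against Ler (log2 fold change 0.49, limma adjusted p = 0.0461).

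Genes of abscisic acid synthesis and breakdown, the pathway that HB21, HB40 and HB53 feed in axillary buds, were measured for 13 of 16 listed. In ag-10 fhy3-68 against Ler 1 rose and 0 fell (2.48% and 1.85% of all genes), in fhy3-68 against Ler also 1 and 0 (2.26% and 0.786%), and in ag-10 fhy3-68 against ag-10 0 and 0. Both genes that rose encode hydroxylases that inactivate abscisic acid. CYP707A3 stood at 24.47 and 68.2 in ag-10 fhy3-68 and 72.99 and 69.66 in fhy3-68, against 9.31 and 10.03 in ag-10 and 16.39 and 10.79 in Ler (log2 fold change 2.38, SE 0.42, limma adjusted p = 0.037 in fhy3-68 against Ler). CYP707A2 rose in ag-10 fhy3-68 against Ler (log2 fold change 1.54, SE 0.33, limma adjusted p = 0.0487). CYP707A1 and CYP707A4, of the same hydroxylase family, went the other way, though neither was called. CYP707A1 stood at 27.93 to 33.64 in the libraries with fhy3-68 and 35.69 to 43.14 in those without. CYP707A4 stood at 1.94 to 5.3 and 5.36 to 7.26. Of 19 measured abscisic acid response genes, 2 rose and 0 fell in each comparison that differs by fhy3-68, where between 0.992% and 2.48% of all genes were called higher, and these were the NAC transcription factors NAP and RD26. NAP, known from leaf senescence, reached 63.95 and 36.46 in ag-10 fhy3-68 and 24.05 and 54.24 in fhy3-68, against 3.24 and 6.74 in ag-10 and 3.33 and 5.71 in Ler. RD26, known from drought responses, reached 13.93 and 9.15 in ag-10 fhy3-68 and 17.34 and 12.17 in fhy3-68, against 3.03 and 3.83 in ag-10 and 2.55 and 2.14 in Ler. The median log2 fold change of the 19 genes in ag-10 fhy3-68 against Ler was 0.43, beside -0.005 over all genes.

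Genes known to rise under sugar starvation had log2 fold changes above 0 in every comparison that differs by fhy3-68. The list was written with earlier results of these data known, and of its 19 genes 17 were measured. Their median log2 fold change was 1.08 in ag-10 fhy3-68 against Ler, 1.03 in fhy3-68 against Ler and 1.07 in ag-10 fhy3-68 against ag-10, beside -0.005, -0.015 and -0.004 over all genes. The test was passed by 7 of them in ag-10 fhy3-68 against Ler, 4 in fhy3-68 against Ler and 3 in ag-10 fhy3-68 against ag-10, all upward, where 2.48%, 2.26% and 0.992% of all genes were called higher. BT2, which encodes a sugar-repressed scaffold protein, had the largest log2 fold change of the list in both comparisons with Ler, at 15.43 and 69.04 in ag-10 fhy3-68 and 13.0 and 110.58 in fhy3-68, against 0.28 and 0.54 in ag-10 and 0.14 and 0.16 in Ler. Its log2 fold change in fhy3-68 against Ler was 5.9 (SE 0.98, limma adjusted p = 0.0352). AT3G15450, an aluminium-induced family gene that overlaps the listed gene AT3G15460, and TPS8, a trehalose phosphate synthase family member, rose in all 3 comparisons. DIN10, a raffinose synthase family gene, rose against Ler in both genotypes with fhy3-68. BCAT2, a branched-chain aminotransferase that overlaps the listed gene AT1G10090, rose in ag-10 fhy3-68 against both Ler and ag-10. ASN1, an asparagine synthetase, and SEN1, a dark-inducible gene, rose in ag-10 fhy3-68 against Ler.

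The level of the starvation genes differed between the replicates of each genotype with fhy3-68. AT3G15450 stood at 755.97 and 1430.0 in ag-10 fhy3-68 and 569.68 and 2093.3 in fhy3-68, against 93.1 and 108.68 in ag-10 and 75.36 and 94.18 in Ler. The summed level of the 17 genes was higher in replicate 2 of both these genotypes, at 1881.9 and 3384.3 in ag-10 fhy3-68, 1458.3 and 4616.8 in fhy3-68, 570.1 and 595.2 in ag-10, and 545.7 and 577.5 in Ler. Of the 17 genes, 10 were higher in replicate 2 in all 4 genotypes, as were 11.8% of all genes. At least 2 times higher in both genotypes with fhy3-68 were 3 of the 17, beside 0.72% of all genes. The part of sugar supply in the levels of DYL1 and AT2G33830 was not tested.

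Genes of cell division, which is arrested in dormant buds, had mostly negative log2 fold changes with fhy3-68. All 18 listed genes were measured, and their median log2 fold change was -0.48 in ag-10 fhy3-68 against Ler, -0.44 in fhy3-68 against Ler and -0.5 in ag-10 fhy3-68 against ag-10. All 4 libraries with fhy3-68 lay below all 4 without it for 12 of the 18, a pattern found in 12.9% of all genes. Of the 18 genes 4 fell and 1 rose in ag-10 fhy3-68 against Ler (1.85% and 2.48% of all genes). The genes that fell encode the Aurora kinases AUR1 and AUR2 and the mitotic cyclins CYCB1;1 and CYCB1;2. AUR2 overlaps the listed gene AT2G25890. The gene that rose encodes the D-type cyclin CYCD3;2. AUR1, which overlaps the listed gene AT4G32840, stood at 22.63 and 23.97 in ag-10 fhy3-68 and 28.88 and 27.52 in fhy3-68, against 38.79 and 37.15 in ag-10 and 41.86 and 39.28 in Ler. It fell in all 3 comparisons (log2 fold change -0.79, SE 0.09, limma adjusted p = 0.0164 in ag-10 fhy3-68 against Ler), and CYCD3;2 rose in all 3.

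**Figure D5:**
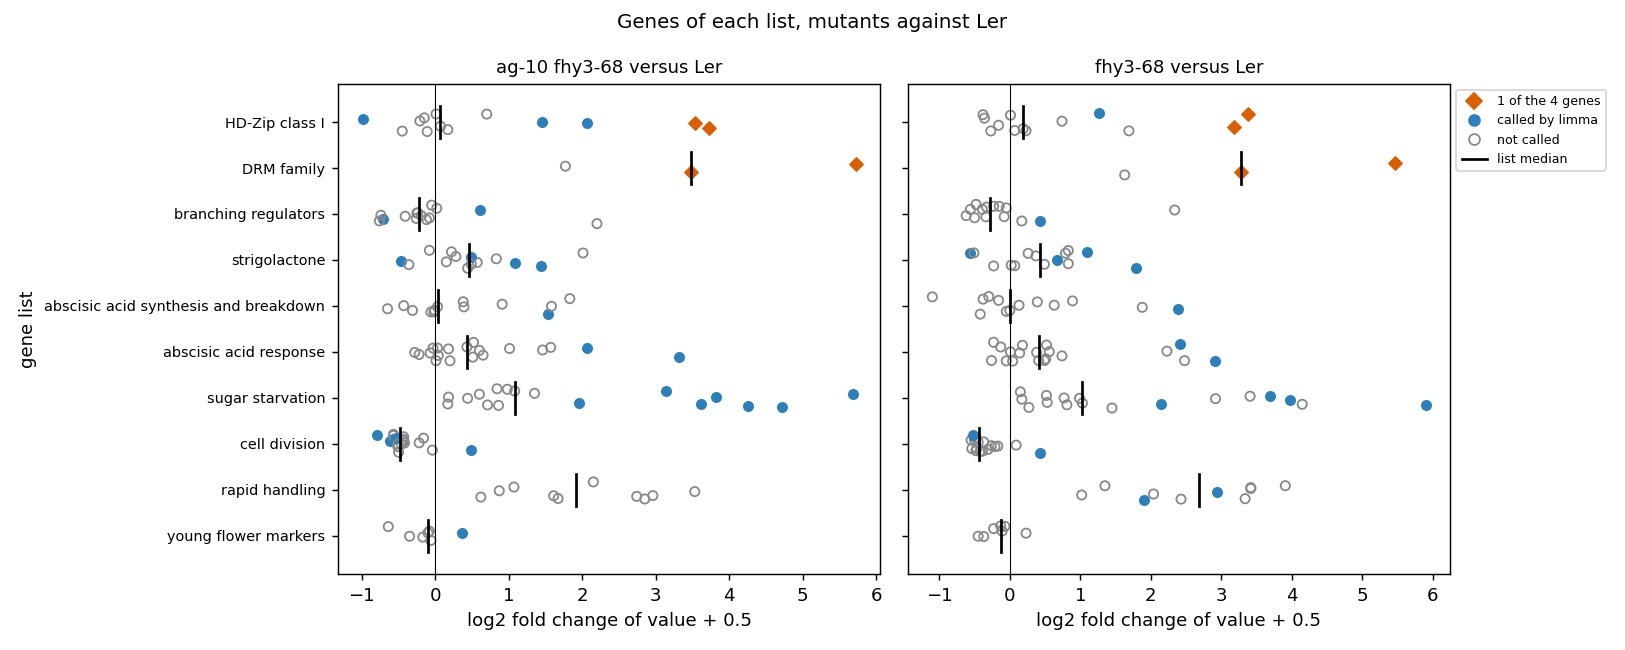
Log2 fold changes of the measured genes of each list on the log2(value + 0.5) scale, in ag-10 fhy3-68 against Ler on the left and fhy3-68 against Ler on the right; each point is a gene, filled where limma called it, diamonds are the 4 genes and vertical marks list medians. The 17 sugar starvation genes and the 10 handling genes lie above 0 in both panels, with medians of 1.08 and 1.91 on the left and 1.03 and 2.69 on the right, and most cell division genes lie below 0.

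Markers of other tissues and of handling were measured beside the 4 genes. The 10 genes known to respond to touch, wounding or cold within minutes all had log2 fold changes above 0 in the 3 comparisons that differ by fhy3-68, with medians of 1.91, 2.69 and 1.98 in ag-10 fhy3-68 against Ler, fhy3-68 against Ler and ag-10 fhy3-68 against ag-10. Their summed level was 607.4 and 1201.2 in ag-10 fhy3-68, 1122.7 and 1389.9 in fhy3-68, 117.4 and 376.9 in ag-10, and 307.7 and 157.7 in Ler, and none was at 0 in any library. CML38 and ERF1A passed limma's test in fhy3-68 against Ler (adjusted p = 0.0352 and 0.0487), where 2.26% of all genes were called higher. In ag-10 fhy3-68 against Ler and against ag-10, 0 of the 10 did so, beside 2.48% and 0.992% of all genes. For 9 of the 10 all 4 libraries with fhy3-68 lay above all 4 without it, as for 14.3% of all genes. These genes thus moved with fhy3-68 as the 4 dormancy genes did, and their part in the result was not tested. Of the 6 mature pollen markers 3 were measured, VGD1, PPME1 and AT59, with sums of 93.7 and 17.6 in ag-10 fhy3-68, 65.9 and 20.5 in fhy3-68, 3.1 and 12 in ag-10, and 7.2 and 26.1 in Ler. These sums overlapped between genotypes with and without fhy3-68. They were highest in replicate 1 of both genotypes with fhy3-68, the replicate in which DYL1 and AT2G33830 were lower. Most of these highest sums came from VGD1, at 85.43 in ag-10 fhy3-68 and 63.69 in fhy3-68. PPME1 was also higher in replicate 1 of both genotypes, while AT59 in fhy3-68 was lower there, at 0.49 against 0.79. The part of the 3 pollen markers in the result was not tested. The 2 measured markers of senescing tissue differed from each other in direction against Ler. SAG29 stood at 13.46 and 12.07 in ag-10 fhy3-68, 14.75 and 10.16 in fhy3-68, 19.82 and 17.39 in ag-10, and 20.15 and 19.52 in Ler. SAG13 stood at 4.55 and 1.97 in ag-10 fhy3-68, 1.75 and 1.01 in fhy3-68, 0.71 and 3.29 in ag-10, and 0.5 and 0.16 in Ler. Neither passed the test, and their part in the result was not tested. Of the 7 young flower markers SEP3 rose in ag-10 fhy3-68 against Ler (log2 fold change 0.36, SE 0.07, limma adjusted p = 0.0453), and none passed the test in the other comparisons. The other 6 had log2 fold changes below 0 in ag-10 fhy3-68 against Ler, and AP3, WUS and ANT had all 4 libraries with fhy3-68 below all 4 without it, WUS at 8.02 and 6.99 in ag-10 fhy3-68 and 9.79 and 8.5 in fhy3-68, against 11.85 and 10.19 in ag-10 and 11.85 and 12.06 in Ler. Their part in the result was not tested.

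The calls on the list genes depended on which libraries entered the fit, including libraries of a genotype not compared. Of 54 such calls, spread over 29 genes, 0 were kept without Ler replicate 1 or without Ler replicate 2. Without 1 of the ag-10 fhy3-68 libraries 12 or 13 were kept, without 1 of the ag-10 libraries 20 or 21, and by the edgeR quasi-likelihood test 39.

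The genes whose levels followed the 4 genes most closely over the 8 libraries were looked up by Pearson's r on log2(value + 0.5). The libraries fell into a high and a low set by fhy3-68 for each of these genes, and genes with the same split have a high r, so the values are a description with no test. HB21 was most like AFP3, which encodes a partner of the abscisic acid regulator ABI5, the purine permease gene PUP10, the PLATZ family gene AT1G76590, the B3 transcription factor gene ABS2 and NAP, with r between 0.99 and 0.992. HB40 was most like AT1G12010, an oxygenase family gene, the phosphatase subunit gene PP2A-4, the glycine-rich protein gene AT1G67870, AT3G01520 and the gibberellin-regulated gene GASA1, with r between 0.99 and 0.995. AT1G12010 had the same near-absence without fhy3-68, at 76.87 and 39.87 in ag-10 fhy3-68 and 25.45 and 60.87 in fhy3-68, against 0.14 and 0.23 in ag-10 and 0.35 and 0.56 in Ler. DYL1 was most like AT5G12420, AMI1, which encodes an amidase that can form auxin, EMB1303, AT3G15630 and the fructose bisphosphatase gene FBP, with r between 0.995 and 0.997. AT2G33830 was most like AMI1, AT3G47800, the cysteine protease gene RD19, DYL1 and AT1G22890, with r between 0.993 and 0.998. PP2A-4 and AT3G47800 overlap the listed genes AT3G58490 and AT3G47810.

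Among themselves the 4 genes were most alike within each family. HB21 and HB40 had an r of 0.99, which placed HB40 13th of 19852 genes by likeness to HB21. DYL1 and AT2G33830 also had an r of 0.99, which placed AT2G33830 10th by likeness to DYL1. Across the pairs r lay between 0.93 and 0.96, and HB40 ranked 916th by likeness to DYL1. AMI1 was the closest gene to AT2G33830 and the second closest to DYL1. It stood at 56.41 and 73.46 in ag-10 fhy3-68, 48.45 and 76.36 in fhy3-68, 25.32 and 36.99 in ag-10, and 25.54 and 29.67 in Ler, higher in replicate 2 in every genotype as both dormancy family genes were.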

How the data were processed

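The deposited table holds 1 signal value per gene and library, a read count divided by a library size factor on a scale of 1000000 by the authors. The unit was inferred: dividing each value by the smallest step of its library gave a whole read within 0.1 for 100% of values. The submitters' processing notes name the tools TopHat2 2.0.14, HTSeq 0.6.1p1, CASAVA 1.8 and edgeR 3.10.0 but no order or role. Build, annotation, counting mode and strand handling were each not given in the sources used here. All 19853 genes reach 1 in at least 2 libraries, and genes below that level were not analysed here.

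limma 3.58.1 (R 4.3.3) with an intensity trend was fitted to log2(value + 0.5) over all 8 libraries with 1 coefficient per genotype (4 residual and 3.41 prior degrees of freedom), and p-values were adjusted over all genes. The code was tested on simulated data. edgeR 4.0.16 and DESeq2 1.42.0 were run on the recovered reads as alternatives. Other alternatives were another pseudocount, scaling by library totals, a minimum mean of 5, only the genotypes compared, a replicate block and leaving out each library. The 4 genes and the 13 gene lists (156 entries, 22 of them not analysed here) were chosen with earlier results of these data known. Named were the 4 genes, each list gene that limma called, members of small groups that the text counts, and the 5 genes most like each of the 4 by Pearson's r. BRC1, NCED3 and AT1G56220 are named as relatives or partners of the 4 genes. Gene names and overlaps came from RefSeq TAIR10.1, which matched 19811 of the 19853 identifiers (99.79%). A planned search of promoters for motifs was not run, and no sequence is shown, since the build of the files is not given. The labels do not say how plants were assigned to replicates, so p-values measure the spread between these libraries.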

Additional observations from a re-analysis of the deposited data

How the results depend on the processing

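With 2 libraries per genotype the count of called genes depends strongly on which libraries enter. In the comparisons that differ by fhy3-68, leaving out a library could not turn the direction of the 4 genes. Each of them had all libraries with fhy3-68 above all those without it, and they were chosen with these levels known. Called were 605 genes in fhy3-68 against Ler, 859 in ag-10 fhy3-68 against Ler and 298 in ag-10 fhy3-68 against ag-10. Leaving out 1 library gave between 1 and 3399, between 2 and 2802, and between 1 and 1820 in these comparisons, between 1 and 4 in ag-10 against Ler and between 1 and 3 in the interaction, in each of which 1 gene was called. With either Ler library left out the counts were 1, 2 and 3 in the comparisons that differ by fhy3-68. DESeq2 called 1491, 1589 and 1068, with 23 in ag-10 against Ler, 1 in ag-10 fhy3-68 against fhy3-68 and 3 in the interaction. Fitting only the genotypes compared gave 345, 2917 and 504, with 9 in ag-10 against Ler, where a pseudocount of 0.1 gave 2. Scaling by library totals left the split between higher and lower calls at 376 and 298, 423 and 467, and 135 and 117, against 449 and 156, 492 and 367, and 197 and 101, and with only the genotypes compared it was 317 and 28 in fhy3-68 against Ler. The cause of these differences was not tested.

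The labels tie no batch to the replicate numbers. The correlation of same-numbered deviations over 16061 genes was over 0.1 in 4 of 6 pairs of genotypes (0.5, 0.35, 0.21 and 0.15) and not in the other 2 (0.01 and -0.03), so the numbers were not taken to pair the libraries, which does not show that they share nothing. With the replicate number as a block 1849, 1959 and 927 genes were called, all 54 calls on list genes were kept, and in the comparisons that differ by fhy3-68 the limma adjusted p lay between 0.0156 and 0.0169 for BRC1, 0.00953 and 0.017 for AT1G56220, 0.0147 and 0.0237 for HB53 and 0.0787 and 0.112 for NCED3.

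Of 380 recomputed fold changes of the 4 genes 342 stayed within the replicate spread or, in the comparisons that differ by ag-10, kept their direction and side of the threshold. Many of the 380 could not move by design. A minimum mean, a replicate block and fitting only the genotypes compared leave the estimate unchanged. So does leaving out a library of a genotype not compared. HB21 in fhy3-68 against Ler was 3.18 in each of these settings. The replicate spread is wide for the interaction, whose sign turned in DYL1, AT2G33830 and HB40 with 1 library left out. HB21 gave 4.02 (edgeR) and 4.04 (DESeq2) in fhy3-68 against Ler, 4.45 and 4.47 in ag-10 fhy3-68 against Ler, and 5.01 and 5.03, with 5.22 at a pseudocount of 0.1, in ag-10 fhy3-68 against ag-10. HB40 gave 4.23, 4.26 and 3.94 (edgeR, DESeq2, pseudocount 0.1), then 4.29, 4.32 and 4.1, then 4.89, 4.92 and 4.61, with 3.28 at a pseudocount of 1, in these comparisons. In ag-10 fhy3-68 against fhy3-68 the sign turned for DYL1 (-0.04 with edgeR, -0.03 with DESeq2) and AT2G33830 (-0.27 with each). Leaving out 1 library gave ranges in that comparison of -0.13 to 1.2 for HB21, -0.48 to 0.8 for HB40, -0.84 to 1.22 for DYL1 and -1.2 to 1.7 for AT2G33830. Other ranges were -1.09 to 0.23 for HB21 and -0.49 to 2.15 for AT2G33830 in ag-10 against Ler, 2.74 to 4.02 for HB40 and 2.25 to 4.32 for DYL1 in fhy3-68 against Ler, and -0.17 to 1.11 for HB40, -1.4 to 0.66 for DYL1 and -2.02 to 0.87 for AT2G33830 in the interaction.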
